A study of Mus musculus with 2 samples.

Results

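The interferon-induced transmembrane genes Ifitm1, Ifitm2, Ifitm3 and Ifitm6 were followed through blood leukocytes of mice after experimental stroke. These 4 genes were taken by name from a table of 11691 genes. Of the other Ifitm genes, Ifitm5, Ifitm7 and Ifitm10 were in the table as well. The family was picked with earlier values of these libraries in view, among them the ratio of Ifitm6 between aged and young neutrophils, so the levels and ratios below are descriptions and carry no test.

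All mice were of the C57BL/6 strain and were sampled 24 h after their proximal middle cerebral artery had been occluded transiently, a model of ischemic stroke in which blood flow returns. The young group held animals of 2 to 4 months and the aged group animals of 18 to 24 months, with 1 library each. Mice without stroke were not analysed here. Blood cells had been sorted as CD11b+ Ly6G- and CD11b+ Ly6G+ fractions, which favours monocytes and neutrophils, and were read with the 10x 3′ kit, version 2. The sources used here do not state how many mice were pooled, or in what proportion the fractions were mixed. The statements below therefore compare 2 libraries, not ages, and the 95% intervals cover counting error only.

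IFITM proteins are small membrane proteins that block the fusion of enveloped viruses with the membranes of the cell. IFITM3 acts mainly in late endosomes and IFITM1 mainly at the cell surface. Many cells raise these genes through interferon signalling, in which STAT and IRF factors bind interferon-stimulated response elements (ISRE) in promoters, while leukocytes also carry sizeable levels without infection. Ifitm6 is a rodent member known mostly from myeloid cells.

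In GENCODE M21 on GRCm38, the 4 protein-coding genes stood in a row on chromosome 7. Ifitm2 (ENSMUSG00000060591.9) spans chr7:140954837-140955987 on the minus strand and Ifitm1 (ENSMUSG00000025491.14) chr7:140967221-140969825 on the plus strand. Ifitm3 (ENSMUSG00000025492.6) spans chr7:141009586-141010770 and Ifitm6 (ENSMUSG00000059108.4) chr7:141015699-141017924, both on the minus strand. Their last 300 transcript bases, which a 3′ kit reads, were 59.3% to 73.4% identical between members. No run of 50 bases in those ends of Ifitm1, Ifitm3 or Ifitm6 occurred in another gene's transcripts, whereas 27.5% of the runs of Ifitm2 did. Over its whole transcript, Ifitm2 shared runs with Ifitm3 and with unnamed gene models, and which of these share its end was not listed. The level of Ifitm2 is therefore less certain than the others, because the sources used here do not say how reads that match several genes were handled.

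The promoters are shown because the members differed in how their levels went with interferon-stimulated transcripts and with granule transcripts across cells. The sequences come from RefSeq on GRCm38.p6 and are written 5′ to 3′ on the strand of the gene, as far as the first annotated exon base. Capitals mark the ISRE core, GAAA and GAAA with any 2 bases between them, in Ifitm2 and Ifitm3 and the TATA box TATAAA in Ifitm6. The Ifitm2 piece is chr7:140955988-140956211 (minus strand), the Ifitm1 piece chr7:140967826-140968027 (plus strand), the Ifitm3 piece chr7:141010771-141010994 (minus strand) and the Ifitm6 piece chr7:141016909-141017142 (minus strand). The Ifitm1 and Ifitm6 pieces lie in introns of longer GENCODE transcripts. A further 30 bases of Ifitm3, chr7:141010714-141010743, cover positions 2 to 31 counted from the first base of the RefSeq transcript.
Ifitm2: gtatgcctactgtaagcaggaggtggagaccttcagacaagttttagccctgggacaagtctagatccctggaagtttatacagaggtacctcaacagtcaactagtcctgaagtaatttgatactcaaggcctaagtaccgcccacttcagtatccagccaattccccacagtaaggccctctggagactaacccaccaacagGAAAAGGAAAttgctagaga
Ifitm1: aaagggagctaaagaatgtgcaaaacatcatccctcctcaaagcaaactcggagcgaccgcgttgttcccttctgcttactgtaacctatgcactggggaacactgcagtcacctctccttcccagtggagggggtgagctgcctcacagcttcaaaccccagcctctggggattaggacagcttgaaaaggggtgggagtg
Ifitm3: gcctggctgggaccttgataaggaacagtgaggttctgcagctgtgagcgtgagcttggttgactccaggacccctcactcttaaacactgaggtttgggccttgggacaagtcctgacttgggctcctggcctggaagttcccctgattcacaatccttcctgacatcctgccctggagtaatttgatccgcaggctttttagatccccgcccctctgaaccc
Ifitm3, bases 2 to 31: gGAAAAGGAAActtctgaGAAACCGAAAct
Ifitm6: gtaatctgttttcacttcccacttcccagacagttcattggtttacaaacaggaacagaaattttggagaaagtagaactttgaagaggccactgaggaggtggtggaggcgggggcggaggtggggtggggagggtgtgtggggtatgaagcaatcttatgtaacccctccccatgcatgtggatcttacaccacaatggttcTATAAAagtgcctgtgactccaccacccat

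For each member 1 window was taken, from 250 bases before to 50 after a RefSeq start. Both strands were searched for the ISRE core, and 3.44% of the 32851 mouse promoters of that length held it. The RefSeq spans of Ifitm1 and Ifitm2 reach further upstream, to chr7:140967429 and chr7:140959686, and windows at those ends were not searched. Ifitm2 had 1 match, which began at position -46. Ifitm3 had 2 matches, at positions 3 and 20. The windows of Ifitm1 and Ifitm6 held none, which says only that these letters were absent there. The STAT motif TTCNNNGAA, on either strand, was in 8.30% of promoters, in Ifitm3 at position 14, where it overlaps the match at 20, and in Ifitm6 at position -10. The TATA box, searched on the gene's strand only, was in 8.32% of promoters and in Ifitm6 alone among the 4, at position -46. The myeloid PU box core GAGGAA, on either strand, was in 28.3% of promoters and in none of the 4 windows.

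The young library held 1849 cells with 6440664 UMIs (median 2022 per cell) while 3944 cells with 13752454 UMIs (median 2219) came from the aged library. UMIs are unique molecular identifiers, which count captured RNA molecules. After removal of likely doublets, 1822 young and 3820 aged cells were used, and 12 cell barcodes occurred in both libraries. The authors' labels gave 1133 young and 2628 aged neutrophils and 540 and 932 monocytes. The other labels were cDC (conventional dendritic cells, 52 and 104 cells), NK (70 and 58), Fol B-cell (14 and 41), Mast cell (0 and 42) and Eryth-Neutro (13 and 15). The neutrophil, monocyte, dendritic, NK and B cell marker lists were each highest under their own label. The nonclassical monocyte list, used below to divide monocytes, was not highest in monocytes. It summed to 423 and 227 CPM there and to 541 and 287 CPM in NK cells. The label Mast cell went with the basophil protease gene Mcpt8 at 3565 CPM, UMIs of a gene per 1000000 UMIs of the population, with no UMI of the mast cell protease gene Cma1 and 1 UMI of the receptor gene Kit. Cells labelled Eryth-Neutro held 884926 and 655546 CPM of erythroid genes in the young and the aged library. Labels also held markers of other types. The monocyte list summed to 2710 and 3008 CPM in dendritic cells and 1223 and 1938 CPM in B cells, against 3266 and 3861 CPM in monocytes. T cell markers summed to 160 and 832 CPM in NK cells.

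Levels in CPM are a gene's UMIs summed over all cells of a label, relative to all UMIs of those cells. Relative to all UMIs, neutrophils had the highest Ifitm level of the large populations. The 4 genes together had 14114 CPM in young neutrophils and 18556 CPM in the aged library, or 1.41% and 1.86% of all their UMIs. Monocytes had 7044 and 10233 CPM and dendritic cells 9982 and 12956 CPM. The median cell held 1629 and 1900 UMIs among neutrophils but 6606.5 and 6401.5 among monocytes. This order is therefore one of shares and not of transcripts per cell. Since 3′ counting reads each transcript once, levels of different members are set side by side without a correction for length.

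**Figure D1:**
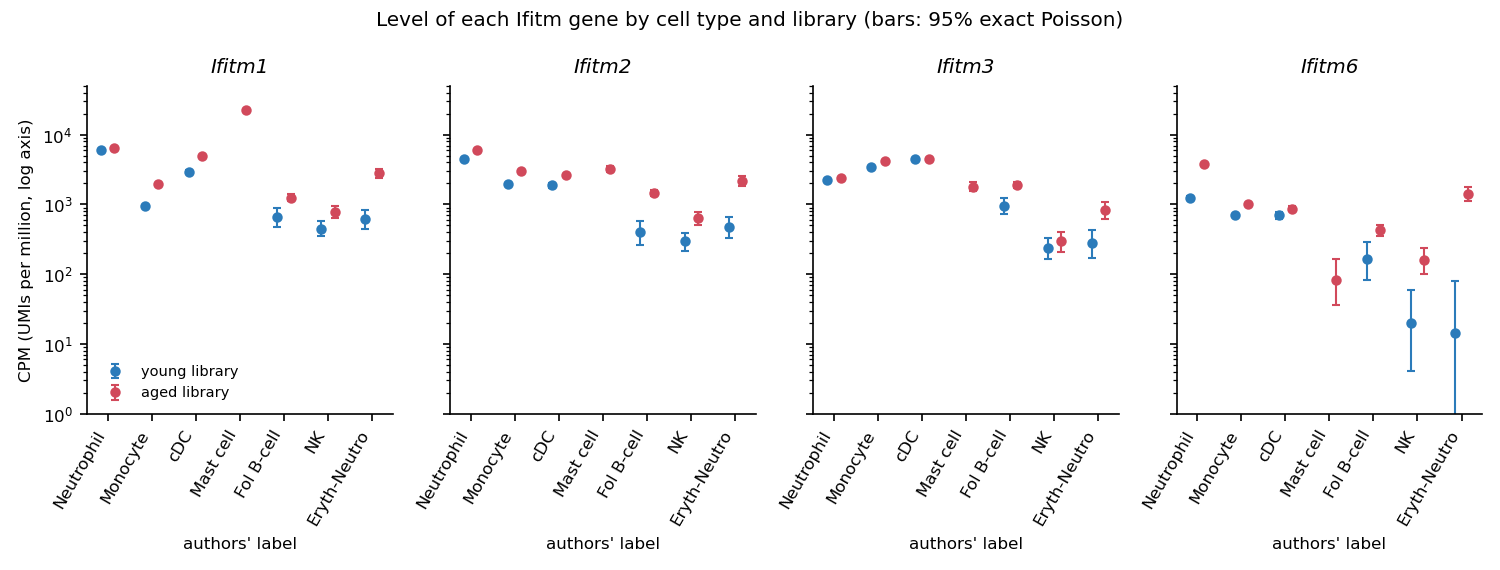
Level of the 4 genes in CPM on a log axis for each of the authors' labels, with the young library in blue, the aged library in red and exact Poisson 95% intervals as bars. Ifitm1 peaked at 22636 CPM in the aged cells labelled Mast cell, Ifitm3 reached 4473 CPM in dendritic cells of both libraries, and Ifitm6 stood apart between the libraries in neutrophils at 1253 and 3745 CPM.

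Ifitm1, the cell surface member, was the leading member of neutrophils at 6101 CPM (5994 to 6209) in young cells and 6458 CPM (6391 to 6526) in the aged library. Dendritic cells followed with 2938 and 4959 CPM and monocytes with 941 and 1947 CPM. Its highest level of all lay in the 42 aged cells labelled Mast cell, with 22636 CPM (21692 to 23610), where Ifitm1 alone made up 2.26% of UMIs and every cell had a UMI. After thinning to 500 UMIs those cells still held a median of 11 UMIs of Ifitm1. Among these 4 labels the aged intervals of neighbours in the order did not overlap.

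Ifitm2 was the second member of neutrophils at 4482 CPM (4390 to 4575) and 5958 CPM (5894 to 6023). Monocytes had 1959 and 3010 CPM and dendritic cells 1876 and 2654 CPM. In the young library the intervals of monocytes (1914 to 2005) and dendritic cells (1743 to 2017) overlapped. The aged cells labelled Mast cell had 3231 CPM (2880 to 3612), which overlapped with aged monocytes (2968 to 3053).

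Ifitm3, the endosomal member, had the reverse order. Dendritic cells were highest, at 4473 CPM in both the young (4266 to 4688) and the aged library (4320 to 4630). Monocytes had 3441 and 4255 CPM and neutrophils 2278 and 2394 CPM. In the aged library the intervals of dendritic cells and monocytes (4204 to 4306) did not overlap, though the gap between them was small.

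Ifitm6 was highest in neutrophils, at 1253 CPM (1205 to 1303) in young cells and 3745 CPM (3694 to 3797) in the aged library. Monocytes had 702 and 1021 CPM and dendritic cells 695 and 870 CPM, and the young intervals of these populations overlapped. The aged cells labelled Mast cell had 8 UMIs of Ifitm6, fewer than the 22.1 UMIs that free RNA would give there.

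Free RNA in the droplets was gauged from S100a8 and S100a9, which neutrophils hold in excess: all S100a8 and S100a9 UMIs of a cell type were counted as free, and the member was assumed to come with them in the proportion of the whole library. NK cells served as the background. There Ifitm3 (35 and 41 UMIs found, 40.2 and 71.3 expected) and Ifitm6 (3 and 22 found, 11.4 and 44.9 expected) stood at or below the estimate. Ifitm2 in NK cells lay near it (44 against 36.1 and 88 against 88.0). Ifitm1 had 67 UMIs against 36.2 in young cells and 110 against 87.1 in the aged library, or 448 and 789 CPM. In dendritic cells all 4 members lay far above the estimate, the least being Ifitm6 with 626 UMIs against 168 in the aged library.

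Labelled B cells had 954 and 1901 CPM of Ifitm3, above the estimate of 296 and 421 CPM. Most of those UMIs came from few cells, since the 3 young and 15 aged B cells with at least 10 UMIs of the myeloid lysozyme gene Lyz2 held 58 of 64 and 467 of 519 UMIs of Ifitm3. The other 11 young and 26 aged B cells had 174 CPM (63.8 to 378) and 407 CPM (304 to 533) of Ifitm3, and these intervals held the free RNA estimates for all labelled B cells. The intervals of Ifitm2 and Ifitm6 in these cells held their estimates as well. Ifitm1 had 435 CPM (243 to 717) in the young cells, beside an estimate of 267 CPM. In the aged cells Ifitm1 had 892 CPM (736 to 1071), above the estimate of 514 CPM. The part of Lyz2 transcripts in the level of B cells was not tested otherwise. Cells labelled Eryth-Neutro had 1 UMI of Ifitm6 in young cells and 84 in the aged library. Neutrophil markers there summed to 14421 and 106799 CPM, and free RNA would give 6.76 and 67.8 UMIs of Ifitm6.

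Between the libraries, the neutrophil levels of the members differed unequally. Ifitm6 was higher in the aged library by a ratio of 2.99 (2.87 to 3.12) and Ifitm2 by 1.33 (1.30 to 1.36). Ifitm1 at 1.06 (1.04 to 1.08) and Ifitm3 at 1.05 (1.02 to 1.09) were close to 1. Of the 4 members, 1 was at least 1.5-fold higher in aged neutrophils, beside 3.79% of the 4745 genes with at least 50 UMIs. A further 20.3% of those genes were at least 1.5-fold lower in the aged library, and none of the members was.

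The median gene of neutrophils had a log2 ratio of -0.24, so the members at 0.08 (Ifitm1) and 0.07 (Ifitm3) stood above it. Only 15 of the 4745 genes had a higher ratio than Ifitm6, while 306 were above Ifitm2, 964 above Ifitm1 and 1007 above Ifitm3. S100a8, S100a9 and Retnlg, the most abundant genes, weighed on this scale, as the neutrophil marker list took 332761 CPM in young cells and 420232 CPM in the aged library. With TMM scaling, which sets aside genes at the extremes, the median of all genes was 0.07, the split of 1.5-fold calls went from 180 higher and 962 lower to 491 and 331, and Ifitm2 passed 1.5-fold at 1.65. With S100a8, S100a9 and Retnlg left out of the total, the median was -0.04, the split 341 higher and 475 lower, and Ifitm2 again passed, at 1.53. Ifitm6 stood at 3.71 and 3.44 in these settings.

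The make-up of the family does not depend on such scaling. Among the UMIs of the 4 genes in neutrophils, Ifitm6 took 8.88% (8.55% to 9.22%) in young cells and 20.2% (19.9% to 20.4%) in the aged library. It thereby passed Ifitm3, which took 16.1% and 12.9%. Ifitm1 went from 43.2% to 34.8% and Ifitm2 held 31.8% and 32.1%. In monocytes Ifitm3 led with 48.9% and 41.6%, Ifitm1 took 13.4% and 19.0%, and Ifitm6 took 9.97% and 9.98%.

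**Figure D2:**
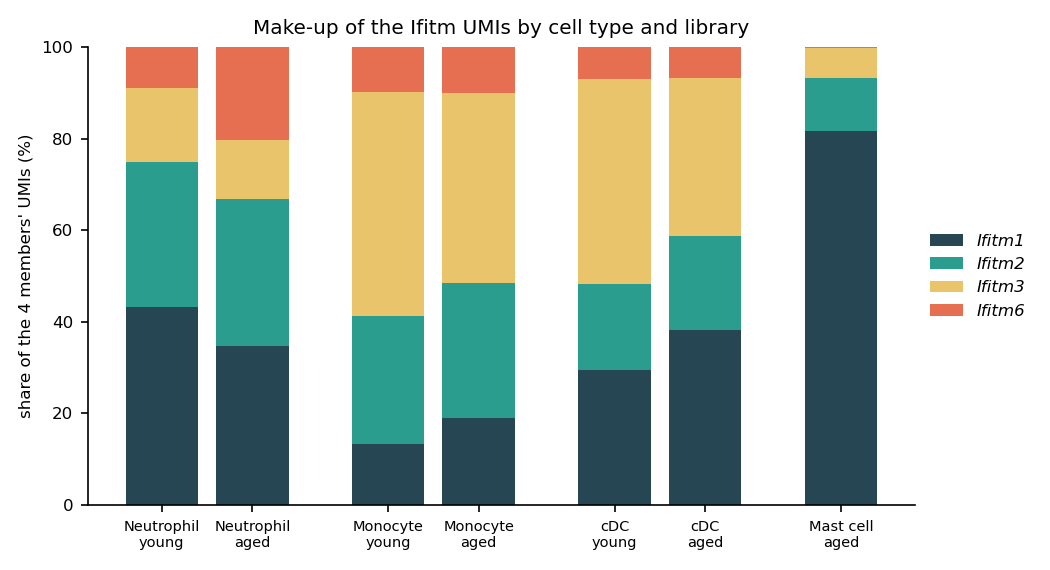
Share of each gene in the UMIs of the 4 members, in percent, for neutrophils, monocytes, dendritic cells (cDC) and cells labelled Mast cell in each library. Ifitm1 made up 81.6% in the cells labelled Mast cell, Ifitm3 led in monocytes, and the share of Ifitm6 in neutrophils was 8.88% in young cells and 20.2% in the aged library.

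Cell by cell, Ifitm6 was detected in a larger share of aged neutrophils, and its median level per cell was higher. A higher level by itself raises the share of cells with a UMI, so these values do not separate the number of expressing cells from the level in each. After each cell was thinned to 500 UMIs, Ifitm6 was present in 372 of 1133 young neutrophils (32.8%, 30.1% to 35.7%) and 1763 of 2628 aged ones (67.1%, 65.3% to 68.9%). In NK cells these shares were 1.43% and 3.45%, at median depths of 2000.5 and 2314 UMIs before thinning, against 1629 and 1900 in neutrophils. Unthinned, 59.9% of young and 91.9% of aged neutrophils had a UMI. The cell's own level at its median, over all neutrophils including those without a UMI, was 592 CPM in young cells and 2653 CPM in the aged library.

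For Ifitm2 the thinned shares were 83.5% and 92.9%, for Ifitm1 77.4% and 79.2%, and for Ifitm3 62.9% and 65.5%. At least 1 UMI of all 4 members was found in 139 of 1133 young neutrophils, or 12.3% (10.4% to 14.3%), and in 823 of 2628 aged ones, or 31.3% (29.5% to 33.1%). Unevenness between cells depended on the measure. For Ifitm1 the variance over cells was 3.46 and 3.59 times the mean at 500 UMIs, where independent counting of equal cells would give a value near 1, and for Ifitm2 it was 1.47 and 1.40 times. For Ifitm6 the variance was 1.88 and 2.17 times the mean. The share of UMIs in the top 10% of cells was highest for Ifitm6, with 54.4% in young and 35.7% in aged cells, against 33.1% and 33.5% for Ifitm1. That share also rises where counts are low. Ifitm6 averaged 0.538 and 1.68 UMIs per cell against 3.18 and 3.36 for Ifitm1, so it is not read as unevenness between cells. In the aged library the tenth percentile of neutrophils had 684 CPM of Ifitm1 and the ninetieth 15101 CPM.

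**Figure D3:**
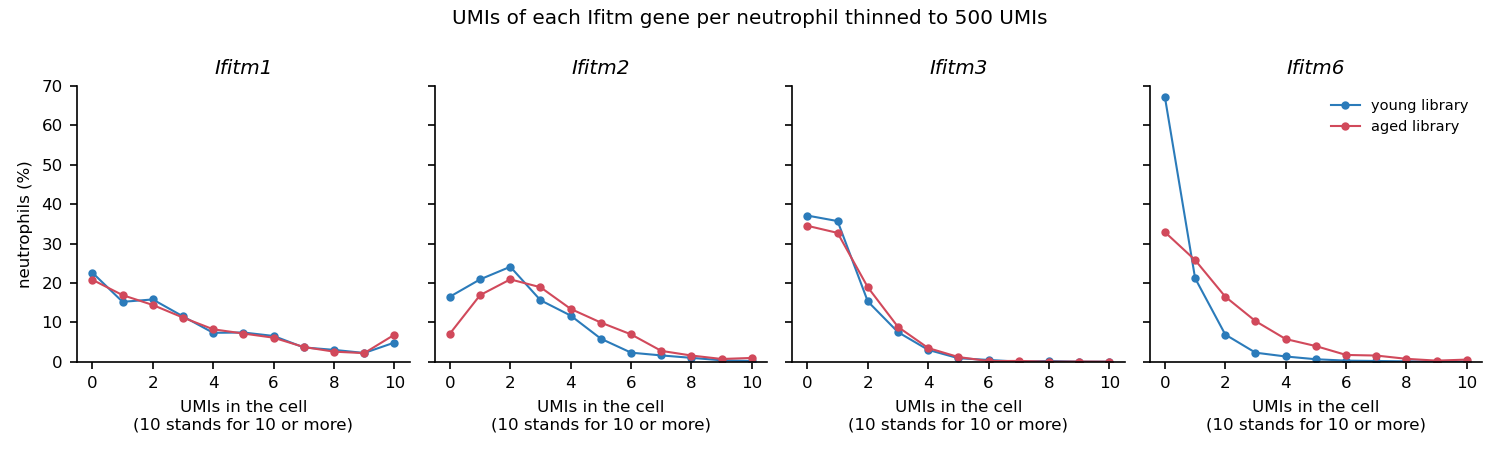
Share of neutrophils, in percent, with a given number of UMIs of each gene after thinning every cell to 500 UMIs, with the young library in blue and the aged library in red. The curves of Ifitm1 and Ifitm3 nearly coincide, while 67.2% of young and 32.9% of aged neutrophils had no UMI of Ifitm6.

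Neutrophils lose the transcripts of granule proteins as they mature, so the members were next set against the early neutrophil list (13 genes in the table, among them Lcn2, Ngp and Camp, which encode granule proteins). Cells were divided by the summed UMIs of the list at 500 UMIs per cell. Ifitm6 was higher at higher scores in both libraries, from 684 CPM (604 to 772) in cells with 0 to 2 UMIs to 3967 CPM (3566 to 4400) in cells with 12 or more in the young library, and from 2367 to 6152 CPM in the aged library. Ifitm1 went the other way, from 7358 to 4089 CPM and from 9057 to 4323 CPM. Ifitm2 was lower at the upper end by less, at 4841 and 3555 CPM in young and 6563 and 5309 CPM in aged cells. Ifitm3 stayed between 2176 and 2511 CPM in all 12 combinations of range and library.

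The score itself differed between the libraries, with 219 of 1133 young and 1010 of 2628 aged neutrophils above 7 UMIs. Within every range Ifitm6 was still higher in the aged library, by 3.46-fold (3.02 to 3.98) in the lowest and 1.55-fold (1.39 to 1.73) in the highest range. With aged cells weighted to the young spread over these ranges, the ratio was 2.58 for Ifitm6, 1.38 for Ifitm2, 1.17 for Ifitm1 and 1.04 for Ifitm3. Lcn2 gave 59.5% and 55.5% of the score. Without it, Ifitm6 went from 709 to 3062 CPM in young and from 2496 to 5269 CPM in aged cells. By Ngp alone it went from 748 CPM in young cells without a UMI of Ngp to 2878 CPM in those with 2 or more, and from 2629 to 5555 CPM in aged cells. The ranges divide a continuous score. In a coarser split with cuts at 4 and 7 UMIs, 1600 of 3761 neutrophils lay within 1 UMI of a cut. Such cells were not counted for the finer ranges given here.

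**Figure D4:**
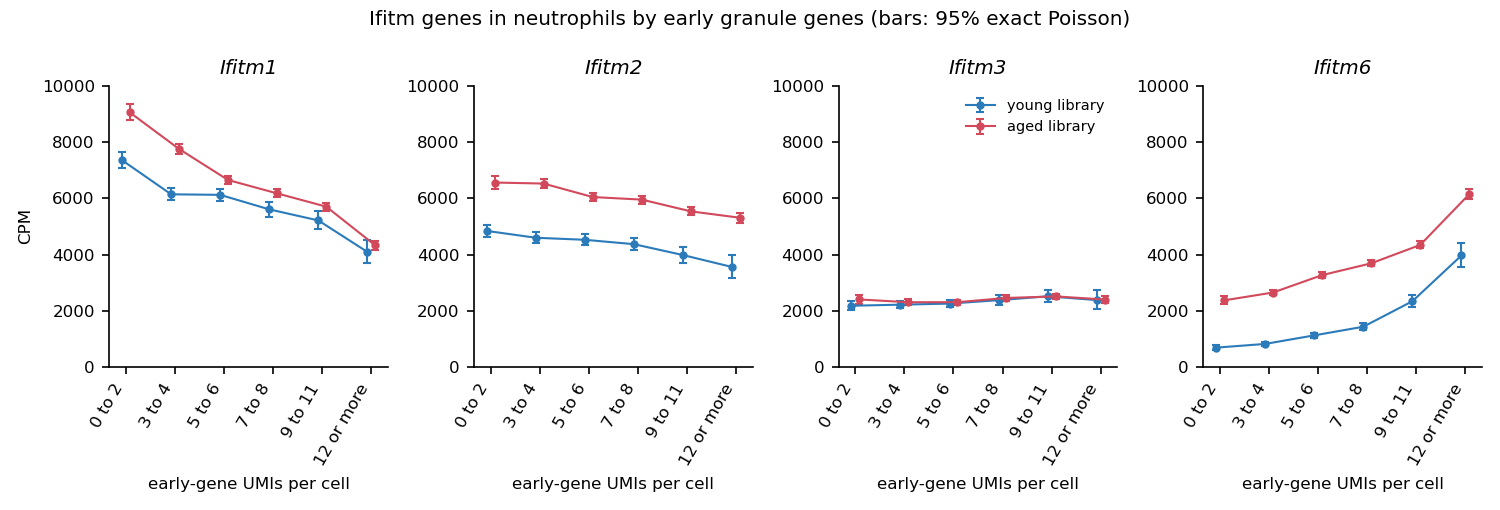
Level in CPM of each gene in neutrophils grouped by UMIs of the early granule genes per cell thinned to 500 UMIs, with exact Poisson 95% intervals. Towards the right Ifitm6 was higher and Ifitm1 lower in both libraries, while Ifitm3 stayed between 2176 and 2511 CPM.

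The members were also set against interferon-stimulated transcripts. The score was the number of UMIs of 45 such genes in cells thinned to 1000 UMIs, with no Ifitm gene among them. In neutrophils Ifitm3 had 1956 CPM (1791 to 2132) in young cells with none and 2517 CPM (2412 to 2625) in cells with 3 or more, and 2247 and 2637 CPM in aged cells. Over the same ranges Ifitm1 had 5831 and 6329 CPM in young and 5806 and 7369 CPM in aged cells, and Ifitm2 had 3999 and 4593 CPM and 5841 and 6139 CPM. In the few neutrophils with 10 or more, 29 young and 30 aged cells, Ifitm3 was at 4730 CPM (4134 to 5387) and 5028 CPM (4455 to 5654). The libraries overlapped there. Without Ly6e, Slfn1 and Samhd1, which made up much of the score, cells with 6 or more UMIs had 4223 and 4398 CPM.

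Ifitm6 was lower along the same score, from 1533 to 479 CPM in young cells and from 4227 to 2865 CPM in aged neutrophils. In the cells with 10 or more, Ifitm1 was at 6021 CPM in young and 8416 CPM in aged neutrophils, and Ifitm2 at 5313 and 5947 CPM. Cells with 10 or more interferon-stimulated UMIs also had fewer early granule UMIs than cells with none, with means of 4.76 against 5.68 in young cells and 5.90 against 7.54 in the aged library. Their part in these differences was not tested. In monocytes Ifitm3 went from 2655 to 5109 CPM in young cells (43 and 6 cells at the ends) and from 4168 to 5774 CPM in aged cells (69 and 16).

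**Figure D5:**
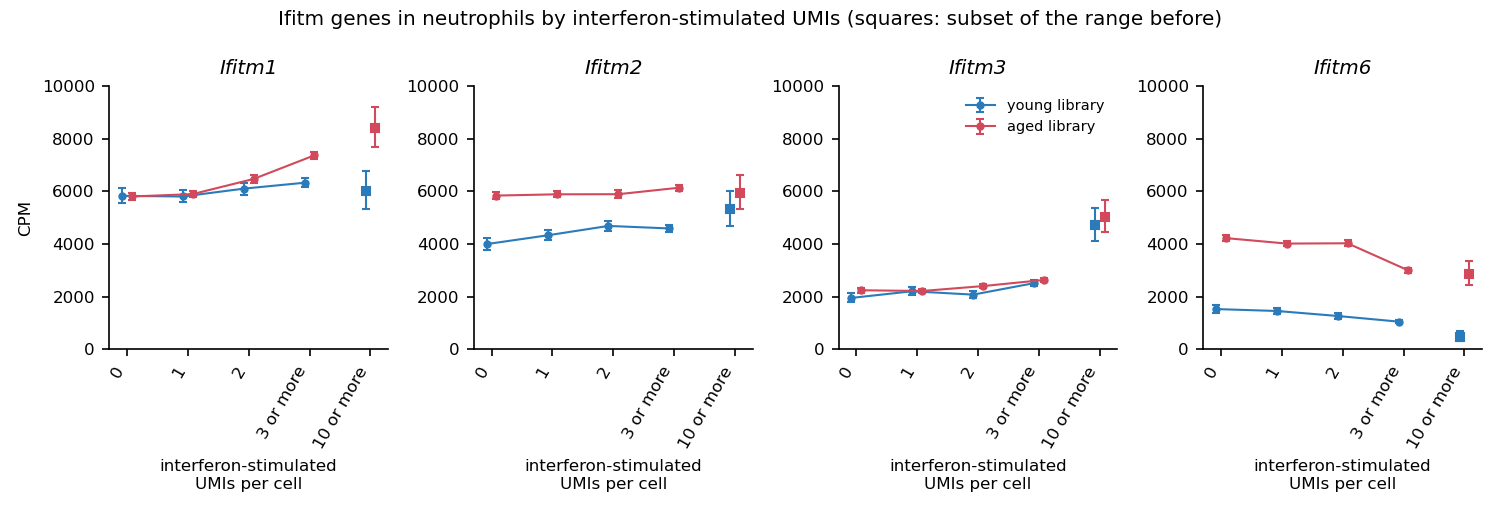
Level in CPM of each gene in neutrophils grouped by interferon-stimulated UMIs per cell thinned to 1000 UMIs, with exact Poisson 95% intervals. Squares are the 29 young and 30 aged cells with 10 or more UMIs, which are also part of the range 3 or more, and Ifitm3 stood at 4730 and 5028 CPM there.

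The other genes of the interferon pathway were counted by the same 1.5-fold rule. Of 28 interferon-stimulated genes measured in neutrophils, 0 were at least 1.5-fold higher and 12 lower in the aged library, beside 3.79% and 20.3% of all genes, with a median log2 ratio of -0.52 beside -0.24 over all genes. With TMM scaling the counts were 1 higher and 5 lower, beside 10.3% and 6.98% of all genes, and the median -0.21 beside 0.07. Rsad2, which encodes the antiviral protein viperin, had 25.2 and 9.49 CPM (ratio 0.377, 0.251 to 0.566), and Ifi27l2a had 301 and 151 CPM. Samhd1, a nucleotide hydrolase that limits viral copying, was close to level at 328 and 318 CPM. In neutrophils 44.2% of young and 31.9% of aged cells had 3 or more UMIs of the list.

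Of 16 receptor and signalling genes in neutrophils, 0 were higher and 3 lower (Irf1, Irf3 and Socs3), with a median of -0.32 beside -0.24 over all genes. A share of 20.3% of all genes was lower as well, so this count is near the background. The interferon gamma receptor gene Ifngr1 had 181 and 205 CPM and the kinase gene Jak1 138 and 125 CPM, while Socs3, an inhibitor of cytokine signalling, had 355 and 205 CPM. With TMM scaling the counts were 0 and 0 and the median -0.01. In monocytes 0 of 19 such genes and 0 of 32 interferon-stimulated genes were higher, and 0 and 2 (Oas3 and Irgm1) were lower, beside 5.88% higher and 8.68% lower of 7778 genes.

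Among 8 measured genes for partners and modifiers of IFITM proteins in neutrophils, the tetraspanin gene Cd9 was higher at 343 and 731 CPM (ratio 2.13, 1.96 to 2.31). Vapb was lower at 38.0 and 21.7 CPM. Vapa, its close relative, had 176 and 150 CPM. So 1 of the 8 was higher and 1 lower, beside 3.79% and 20.3% of all genes. With TMM scaling 1 of the 8 was higher and 0 lower, beside 10.3% and 6.98% of all genes, so Vapb no longer passed. In monocytes 2 of 10 were higher, Cd9 at 27.6 and 54.5 CPM and Cd81 at 7.18 and 15.5 CPM, and 0 were lower. Neutrophils held more Cd9 than monocytes, and the part of free RNA in the monocyte level of Cd9 was not tested. Of all 7778 monocyte genes, 5.88% were higher and 8.68% lower. Other restriction factors of virus entry and release gave 0 higher and 2 lower of 10 in neutrophils, near the 20.3% of all genes that were lower. These were Ly6e, a surface protein that blocks coronavirus fusion, at 569 and 368 CPM, and Rtp4 at 94.7 and 56.0 CPM. The highest ratios of that list were 1.35 (1.30 to 1.40) for Tspo, at 1643 and 2216 CPM, and 1.29 (1.09 to 1.53) for Apobec3. The ratios of its other measured genes were below 1. With TMM scaling 0 genes of that list were lower and 2 higher, beside 6.98% and 10.3% of all genes. In monocytes 1 of 13 was higher (Tspo, 1201 and 1946 CPM) and 2 were lower (Ncoa7 and Serinc5). Over all monocyte genes the shares were 5.88% and 8.68%. Serinc5 had only 30 and 35 UMIs, and its ratio of 0.660 had an interval of 0.394 to 1.11.

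Monocytes differed between the libraries in another member. Ifitm1 had a ratio of 2.07 (1.99 to 2.15), Ifitm2 1.54, Ifitm6 1.45 (1.39 to 1.52) and Ifitm3 1.24 (1.21 to 1.26). So 2 of 4 members were at least 1.5-fold higher, beside 5.88% of 7778 genes, and 91 genes had a higher ratio than Ifitm1. Without ribosomal and mitochondrial genes in the total, the split of all calls went from 457 higher and 675 lower to 334 and 840. Ifitm2 fell short of 1.5-fold when ribosomal and mitochondrial genes were left out of the total (1.47). It also fell short in cells without markers of other types besides S100a8 and S100a9 (1.49), a setting added after seeing the data. Ifitm6 reached 1.5-fold without removal of doublets and 1.52 in cells thinned to 500 UMIs. The thinned shares of monocytes with a UMI were 35.2% and 52.5% for Ifitm1 and 58.1% and 80.2% for Ifitm2.

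S100a8 and S100a9, the guide to free RNA, made up 0.934% of UMIs in young and 2.50% in aged NK cells, and 2.16% and 3.13% in monocytes. With the estimate subtracted, Ifitm1 had 383 and 1165 CPM and a ratio of 3.04, and Ifitm6 527 and 618 CPM and a ratio of 1.17. Monocytes make S100a8 and S100a9 themselves, so this takes off too much. By markers, 501 young and 897 aged monocytes were classical-like and 36 and 27 nonclassical-like, with 3 and 8 cells undecided. Ifitm1 was at 975 and 1967 CPM in the classical-like and at 430 and 971 CPM in the nonclassical-like cells. Ifitm3 was similar in both, at 3464 and 4258 CPM against 3123 and 4137 CPM.

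Aged monocytes held more cells with transcripts of the complement gene C1q (210 of 932 against 49 of 540 with 2 or more UMIs) and of Spp1 or Dmkn (387 against 44). In the 454 young and 425 aged monocytes with neither, Ifitm1 reached 963 and 2128 CPM, with a ratio of 2.21 (2.11 to 2.31). Cells with 2 or more C1q UMIs had 789 and 1726 CPM of Ifitm1. The part of these states in the difference was not tested otherwise.

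In dendritic cells Ifitm1 had a ratio of 1.69 (1.58 to 1.81), Ifitm2 1.41 (1.30 to 1.54), Ifitm6 1.25 (1.08 to 1.45) and Ifitm3 1.000 (0.943 to 1.06). Their Ifitm1 came as 1146 and 3569 UMIs from 52 and 104 cells. Ifitm1 therefore had the largest ratio of the members in monocytes and dendritic cells, and Ifitm6 in neutrophils. Whether the ratios differ between cell types beyond the spread of mice was not tested.

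The members were only loosely tied to one another within a cell type. Over neutrophils thinned to 1000 UMIs, the Pearson correlation of log counts between Ifitm1 and Ifitm2 was 0.16 in 1133 young and 0.15 in 2628 aged cells. Between Ifitm1 and Ifitm6 it was -0.14 and -0.23. Ifitm3 was near 0 with each of the others, from -0.07 to 0.03. Cells share their library and sparse counts pull such values towards 0, so these are descriptions. Among aged neutrophils with a UMI of Ifitm6 at 500 UMIs, 76.9% (74.9% to 78.9%) had a UMI of Ifitm1, against 83.9% (81.3% to 86.3%) of those without. In monocytes the values ran from -0.03 to 0.18, the highest being Ifitm2 with Ifitm3 in the young library.

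The genes most like each member were sought over single neutrophils, among 1133 genes found in at least 5% of neutrophils of each library. For Ifitm6 these were Ngp, a granule protein gene (mean correlation of the libraries 0.32), S100a8 (0.31), the collagenase gene Mmp8 (0.30), Retnlg (0.27) and S100a9 (0.20). For Ifitm1 they were Wfdc17 (0.23), the nuclear noncoding RNA Malat1 (0.19), Ifitm2, the proteoglycan gene Srgn and the cytokine gene Il1b. Those of Ifitm2 overlapped, with Wfdc17 (0.19), Srgn, Ifitm1, Btg1 and Il1b. Ifitm3 was closest to the interferon-stimulated genes Isg15 and Rtp4 (both 0.11), followed by Mapk13, Ifi27l2a and Milr1 (each 0.07), values too weak to read further.

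Over the 10 sums of a cell type in a library with at least 20 cells, which share libraries and free RNA, other genes came first among 5337. Ifitm1 went most closely with Smim3 (0.967), Rgs18, Flot1, Fxyd5 and Pfkfb3. Ifitm2 went with Alox5ap of leukotriene synthesis (0.979), Rab7, Gpi1, Taldo1 and Spi1. Ifitm3 went with the properdin gene Cfp (0.984), Sgk3, Ptpn6, Cd300a and Gpx1, and Ifitm6 with Tlr13, a sensor of bacterial RNA (0.952), Rbm47, Tpd52, Marcks and Fth1. With so few sums and so many genes, high values are easily reached, and no order among them is read.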

How the data were processed

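The deposited table held raw UMI counts of 11691 genes in 5793 cells with the authors' cell type label for each cell. Reads had been processed with Cell Ranger 2.1.1 on the mm10 genome, per the submitters' processing notes. Every cell had at least 200 genes and 500 UMIs and at most 10% mitochondrial UMIs, so none was removed. Doublets were ranked with scrublet (in scanpy 1.11.5) and the highest scores were removed at 0.8% per 1000 cells. CPM is a member's summed UMIs per 1000000 UMIs of the population. Intervals at 95% are exact Poisson, Clopper-Pearson for shares and exact binomial for ratios. With 1 library per age no test of age exists, and p-values are not given. Ratios were called at 1.5-fold among genes with at least 50 UMIs. For shares and scores each cell was thinned to 500 or 1000 UMIs, and no used cell was shallower. Scores sum the UMIs of a gene list. TMM factors came from edgeR 4.0.16 in R 4.3.3. Python 3.11.15 and scipy 1.17.1 were used, and the calculations were tested on simulated data. The members, gene lists and tests were chosen with earlier results of these data known. Named genes were all Ifitm genes, the 5 most correlated genes per member, and per list the 4 with the most UMIs and the 2 highest and 2 lowest ratios; Irf1, Csf1, Il1rn and Fgl2 were named after their values were seen where that rule left them out. Alternatives covered scaling, doublets, depth, thinning, markers of other types and the count minimum. Xist and the genes of immunoglobulins and T cell receptors were left aside.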

Additional observations from a re-analysis of the deposited data

Results flagged for a closer look

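Ifitm10, a gene apart from the 4 members on chromosome 7 (142325837 to 142373753, minus strand), drew attention because it had a signal in a population outside the comparisons made above. In young NK cells it stood at 180 CPM (119 to 262), with 27 UMIs in 22 of 70 cells. In aged NK cells it stood at 143 CPM (87.6 to 221), with 20 UMIs in 19 of 58 cells. Free RNA would give 0.495 and 0.553 CPM there. Neutrophils had 2.47 and 4.38 CPM and monocytes 0.828 and 0.624 CPM, and the intervals of the NK cells of both libraries overlapped. Of the runs of 50 bases in its last 300 transcript bases, 9.49% also occur in another gene model. Ifitm5 had at most 6.91 CPM in any label, and Ifitm7 at most 20.9 CPM, from 2 UMIs.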

How the results depend on the processing

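All 8 ratios of the members stayed above 1 under each of 11 alternatives in neutrophils and 12 in monocytes, and none reversed. The cause of the shifts was not tested. In neutrophils, TMM scaling gave 1.31 for Ifitm1, 1.65 for Ifitm2, 1.30 for Ifitm3 and 3.71 for Ifitm6. Leaving S100a8, S100a9 and Retnlg out of the total gave 1.22, 1.53, 1.21 and 3.44 in the same order. Without ribosomal and mitochondrial genes the ratio was 1.03 for Ifitm1 and 1.29 for Ifitm2. In cells without markers of other types (162 young, 590 aged) the ratios were 1.08, 1.29, 1.11 and 3.35. Thinning to 500 UMIs gave 1.09 for Ifitm3 and 3.12 for Ifitm6, and thinning to 1000 gave 3.25 for Ifitm6. With the same lowest depth of 1451 UMIs Ifitm1 was at 1.11 and Ifitm6 at 2.64, and the mean of each cell's own CPM gave 3.15 for Ifitm6. Weighting to the young spread over granule ranges, chosen after seeing the data, gave 1.17 for Ifitm1, 1.38 for Ifitm2 and 2.58 for Ifitm6.

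In monocytes, leaving out ribosomal and mitochondrial genes gave 1.98 for Ifitm1, 1.47 for Ifitm2 and 1.18 for Ifitm3. Thinning to 500 UMIs gave 1.69 for Ifitm2 and 1.27 for Ifitm3, and thinning to 1000 gave 2.21, 1.60 and 1.34 for Ifitm1, Ifitm2 and Ifitm3. The mean of each cell's own CPM gave 2.17, 1.62 and 1.29. Of the settings added after seeing the data, cells without other markers besides S100a8 and S100a9 gave 1.79, 1.49 and 1.20. Monocytes with under 2 UMIs of C1q and under 2 UMIs of Spp1 or Dmkn gave 2.21, 1.62 and 1.28. Subtracting free RNA gave 3.04, 1.58 and 1.28, and 1.17 for Ifitm6. The planned exclusion of all other markers left 0 young monocytes and was not possible.

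The number of genes at least 1.5-fold apart, 1142 of 4745 in neutrophils (24.1%), was 576 of 2236 (25.8%) after thinning to 500 UMIs, 1992 of 6522 (30.5%) from 20 UMIs and 406 of 2178 (18.6%) from 200 UMIs. In monocytes 1132 of 7778 (14.6%) became 351 of 1776 (19.8%), 1740 of 9325 (18.7%) and 393 of 4356 (9.02%). Fewer UMIs per gene limit the small populations most. No paired analysis was possible because each age had 1 library.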

Other observations

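The early neutrophil list that was used to order cells also differed between the libraries. Of its 13 genes, 7 were at least 1.5-fold higher and 0 lower in aged neutrophils, beside 3.79% and 20.3% of all genes, with a median log2 ratio of 0.85 beside -0.24 over all genes, and with TMM scaling 11 were higher, beside 10.3% of all genes. Ngp, a granule protein gene, had 567 CPM in young and 1026 CPM in aged cells, and Camp, the cathelicidin gene, 15.8 and 92.9 CPM. Lcn2, which encodes a siderophore-binding granule protein, was closer at 6245 and 7940 CPM. Of 12 late neutrophil genes, 0 were higher and 5 lower (Il1b, Csf1, Il1rn, Junb and Fgl2), with a median of -0.36 beside -0.24 over all genes. With TMM scaling 1 was higher and 3 lower, beside 10.3% and 6.98% of all genes. The lists were put together with earlier results of these libraries known.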
